A study of Mus musculus with 36 samples.

Results

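Fatty acid oxidation in the liver was described through 44 genes, which encode the enzymes, transporters and binding proteins that take up, activate and shorten fatty acids in mitochondria and peroxisomes. The genes were chosen by symbol from a hand-made list, with earlier results of these data known. All 44 were found among the 38283 genes of the count table, and all 44 passed the filter on low counts, as did 13945 genes in all. By the known site of their products, 18 were taken as mitochondrial, 12 as peroxisomal and 5 as present at both sites, and a further 9 were kept apart as associated genes that act before or beside the pathway.

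Liver RNA came from 36 C57Bl/6J mice aged 16 weeks and kept on chow, 6 in each of 6 groups, with each library made from 1 mouse. Mice labelled WT carried the wild type *Pik3r1* gene. Mice labelled MT carried the human mutation Y657x, a stop codon at tyrosine 657 of *Pik3r1*, which encodes a regulatory subunit of phosphoinositide 3-kinase in the insulin signal. By the study's methods MT mice were heterozygous (WT/Y657*), with the allele knocked into the germline and therefore present in every tissue, so that a change in liver RNA could arise from events in the liver or elsewhere. Mice are named by their labels, which begin with ALC for fed, ONF for fasted and RF6 for refed mice and end in the mouse number. Each genotype was sampled fed (chow at will), fasted for 16 h, or refed on chow for 6 h after a 16 h fast. The study asked how the mutation, which gives severe insulin resistance, alters liver gene expression across these states.

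Fatty acids released from fat during a fast are taken up by the liver and bound to coenzyme A. In mitochondria, the carnitine shuttle carries long chains across the inner membrane and the β-oxidation spiral removes acetyl-CoA in rounds of dehydrogenation, hydration, dehydrogenation and thiolysis, which feeds ketone body synthesis. Peroxisomes shorten very long and branched chains by their own oxidases, bifunctional enzymes and thiolases and pass the products on as carnitine esters. In liver, many of these genes are known targets of PPARα, a nuclear receptor that fatty acids activate and that binds, with RXR, to a direct repeat of AGGTCA with 1 base between the repeats (DR1), whereas insulin is known to lower several of them, *Cpt1a* among them.

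Promoter sequence is shown for members whose promoter held letters close to a DR1, because these genes are often discussed together as PPARα targets although they did not all move together here. Windows from 250 bases before to 50 bases after a gene's start were taken from RefSeq (mouse build GRCm38.p6) and matched 37 of the 44 members. Those without a window, which were not searched, were *Vnn1*, *Decr1*, *Hsd17b4*, *Crat*, *Acaa2*, *Pex19* and *Abcd2*. Both strands were searched for AGGTCA, any base, AGGTCA, and the 12 fixed letters were compared. Over all 32851 windows, 0.554% held a match with at most 1 mismatch, 3.86% with at most 2 and 24.6% with at most 3. Of the 37 members 1 had at most 1 mismatch, 5 had at most 2 (13.5%) and 12 had at most 3 (32.4%). A member was counted by its closest window, and *Abcd3*, *Acox2* and *Acsl1* had 2 windows. The shares of members are therefore per gene and those over all windows per window. The closest match, with 1 mismatch and 67 bases before the start, belonged to *Fabp1*, and *Cd36*, *Etfa* and *Echs1* each had 2 mismatches. In the following lines each sequence runs 5′ to 3′ on the gene's strand and capitals mark the match.
Fabp1, chr6:71199782-71199854, plus strand: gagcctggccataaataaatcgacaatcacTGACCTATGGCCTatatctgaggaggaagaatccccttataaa
Cd36, chr5:17835917-17835989, minus strand: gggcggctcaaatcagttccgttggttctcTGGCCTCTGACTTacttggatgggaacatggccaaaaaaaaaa
Etfa, chr9:55512278-55512350, minus strand: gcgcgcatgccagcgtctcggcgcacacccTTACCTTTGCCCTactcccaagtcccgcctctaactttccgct
Echs1, chr7:140116462-140116534, minus strand: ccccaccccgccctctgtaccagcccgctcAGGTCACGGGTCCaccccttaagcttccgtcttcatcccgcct

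The fifth such member, *Acox2*, had its match, AGGACAGAGGTGA with 2 mismatches, 9 bases after a start, at chr14:8258818-8258830 on the minus strand. A match of letters in this window is a description and not a binding site. *Hadha* and *Hadhb*, the subunits of the mitochondrial trifunctional protein, are shown because they lie head to head on chromosome 5 and are transcribed away from each other, so that the same 85 bases separate their outermost annotated starts.
Hadha and Hadhb, chr5:30155163-30155247, plus strand: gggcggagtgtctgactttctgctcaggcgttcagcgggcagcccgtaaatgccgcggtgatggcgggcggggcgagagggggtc

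Libraries held between 8839488 and 19542775 counts, with a median of 13596665.5. Levels are given as CPM, a gene's counts relative to its library's total after TMM scaling, and fold changes are log2 values from edgeR with their standard errors (SE). A gene was called higher or lower where edgeR's quasi-likelihood test gave an adjusted p under 0.05 over all 13945 genes. Defining hepatocyte markers were abundant in every library (summed CPM of 7 genes from 53844 to 96389), and sums stayed low for adipocyte markers (5 genes, at most 11.6) and skeletal muscle markers (4 genes, at most 1.31). In bulk liver RNA, fewer cells of a type and less RNA per cell cannot be told apart. Fed mice shared no run of mouse numbers with fasted or refed mice. A run here is a set of nearby mouse numbers drawn for this report, which the labels do not name as a batch. No single size of gap was used, and some gaps within runs are wider than the gaps between the fed runs. Results within runs or with run as a covariate depend on this choice, and other ways of drawing the runs were not tested. Of the 12 fasted libraries, 11 carried an index that no fed or refed library carried. The fed state therefore cannot be told apart from the run of mouse numbers, nor the fasted state, but for 1 library, from that index. *Pik3r1* RNA itself had median CPM of 132 and 133 in fed, 94.3 and 99.1 in fasted and 124 and 152 in refed WT and MT mice, which does not check the labels, since a stop codon near the end of the protein need not change the level of the RNA.

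Per kilobase of exon, the members spanned a wide range of levels in fed WT liver. Exon length took in every base of any annotated exon of a gene, so these levels and their order depend on the annotation. *Fabp1*, the cytosolic fatty acid binding protein of hepatocytes, stood at 5238 ± 1018 CPM per kb (mean ± SD, n = 6), and *Acaa2*, the mitochondrial 3-ketoacyl-CoA thiolase, followed at 565 ± 49.6. At the low end were *Ucp2*, a carrier of the inner mitochondrial membrane, at 1.59 ± 0.329, and *Abcd2*, a peroxisomal transporter of very long chain acyl-CoA, at 0.666 ± 0.302. In fasted WT mice *Fabp1* was at 8105 ± 1096 CPM per kb. Below it in these mice were *Acaa1b*, a peroxisomal thiolase, at 947 ± 127, *Ehhadh*, the peroxisomal bifunctional enzyme, at 746 ± 87.7 and *Acaa2* at 736 ± 75.7. The ranges of 1 SD around *Acaa1b* and *Ehhadh* overlapped, as did those around *Ehhadh* and *Acaa2*. In fasted MT mice *Ehhadh* was at 877 ± 142 and *Acaa1b* at 654 ± 108 CPM per kb.

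Most of the 44 members were higher in fasted than in fed mice of both genotypes. As given above, the fed state cannot be told apart from the run of mouse numbers. By the study's methods, tissues were taken before the overnight fast, after it or after refeeding, so time of day may also differ between states. In WT mice 37 of 44 members were called higher and 2 lower, and in MT mice 31 were called higher and 4 lower. Among all genes tested, 14.5% were called higher and 17.5% lower in WT mice, and 15.2% higher and 17.7% lower in MT mice. The members were chosen with earlier results of these data known, so their distance from these shares only describes the chosen genes. The median log2 fold change of the members was 0.95 in WT and 0.77 in MT mice, against 0.01 and -0.01 over all genes tested. All 31 members called higher in MT mice were also called higher in WT mice, where they made up 31 of 37. In WT mice every fasted value lay above every fed value for 34 members, and in MT mice for 22. For 1 member in WT and 2 in MT mice every fasted value lay below every fed value. The same counts were not made over all genes tested, so they cannot be read as particular to the members. Members' share of all counts had a median of 1.39% in fed and 2.75% in fasted WT mice, and of 1.46% and 2.41% in MT mice.

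Of the 18 mitochondrial members, 16 rose in WT and 13 in MT mice and none fell, with median log2 fold changes of 0.84 and 0.63. *Cpt1a*, the carnitine palmitoyltransferase that controls entry of long chains, ran from 295 to 349 CPM (median 306) in fed WT mice and from 864 to 1053 (median 941) in fasted WT mice. In MT mice its range was 264 to 375 (median 315) fed and 637 to 972 fasted. Fed and fasted mice did not overlap in either genotype, and the log2 fold changes were 1.60 (SE 0.11, adjusted p = 3.85e-14, edgeR) in WT and 1.34 (SE 0.11, adjusted p = 3.08e-12) in MT mice. *Cpt2*, which releases the acyl group from carnitine inside, rose by 0.96 and 0.77.

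The acyl-CoA dehydrogenases, which open the spiral, differ in the chain length they prefer. *Acadm*, the medium-chain acyl-CoA dehydrogenase, went from 235 to 331 CPM (median 283) in fed to 588 to 780 (median 744) in fasted WT mice, and from 228 to 282 (median 248) to 420 to 704.2 (median 646) in MT mice. All fasted values exceeded all fed values, with log2 fold changes of 1.39 (SE 0.12, adjusted p = 1.11e-11, edgeR) and 1.32 (SE 0.12, adjusted p = 5.48e-11). The long-chain enzyme *Acadl* rose by 1.01 and 0.96 and the very-long-chain enzyme *Acadvl* by 0.52 and 0.49. The short-chain enzyme *Acads* rose by 0.29 in WT mice (adjusted p = 0.0022, edgeR), and its MT value was 0.16 (adjusted p = 0.104). *Acadvl* shares 42.9% of its exon bases with *Dvl2* on the opposite strand, which held 2932 counts over all libraries beside 266460 for *Acadvl*.

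Both subunits of the trifunctional protein rose in both genotypes. *Hadhb* ran from 83.9 to 99.2 CPM (median 90.8) in fed and 182 to 237 (median 214) in fasted WT mice, and from 79.9 to 91.7 (median 87.9) and 139 to 213 (median 194) in MT mice. The states did not overlap, with log2 fold changes of 1.22 (SE 0.09, adjusted p = 2.53e-13, edgeR) in WT and 1.08 (SE 0.09, adjusted p = 4.75e-12) in MT mice. *Hadha*, across the shared 85 bases, went from 301 to 346 CPM (median 331) to 574 to 659 (median 637) in WT mice and from 298 to 346 (median 316) to 452 to 591 (median 561) in MT mice. It rose by 0.94 (SE 0.09, adjusted p = 3.96e-11, edgeR) and 0.79 (SE 0.08, adjusted p = 2.31e-09), again without overlap.

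Not every step of the spiral was called on fasting. *Echs1*, the short-chain enoyl-CoA hydratase, had log2 fold changes of 0.02 in WT and -0.09 in MT mice, and *Etfa*, a subunit of the electron transfer flavoprotein that accepts electrons from the dehydrogenases, of 0.17 and 0.13, and none of these was called. Both carry a near match to a DR1 in the promoter window printed above. *Etfdh*, which passes those electrons to ubiquinone, rose by 1.17 and 0.93, and *Etfb*, the other subunit of the flavoprotein, by 0.39 and 0.49, although 53.0% of its exon bases are shared with *Gm45233* on the same strand. Enzymes that handle double bonds rose as well, *Decr1*, the 2,4-dienoyl-CoA reductase, by 1.21 and 1.02, and *Eci1*, the enoyl-CoA isomerase, by 1.13 and 0.76. *Acsm3*, a medium-chain acyl-CoA synthetase, rose by 0.63 and 0.44, but 39.7% of its exon bases are shared with *Eri2* on the opposite strand, and whether the counting used strand is not given in the sources used here.

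**Figure D1:**
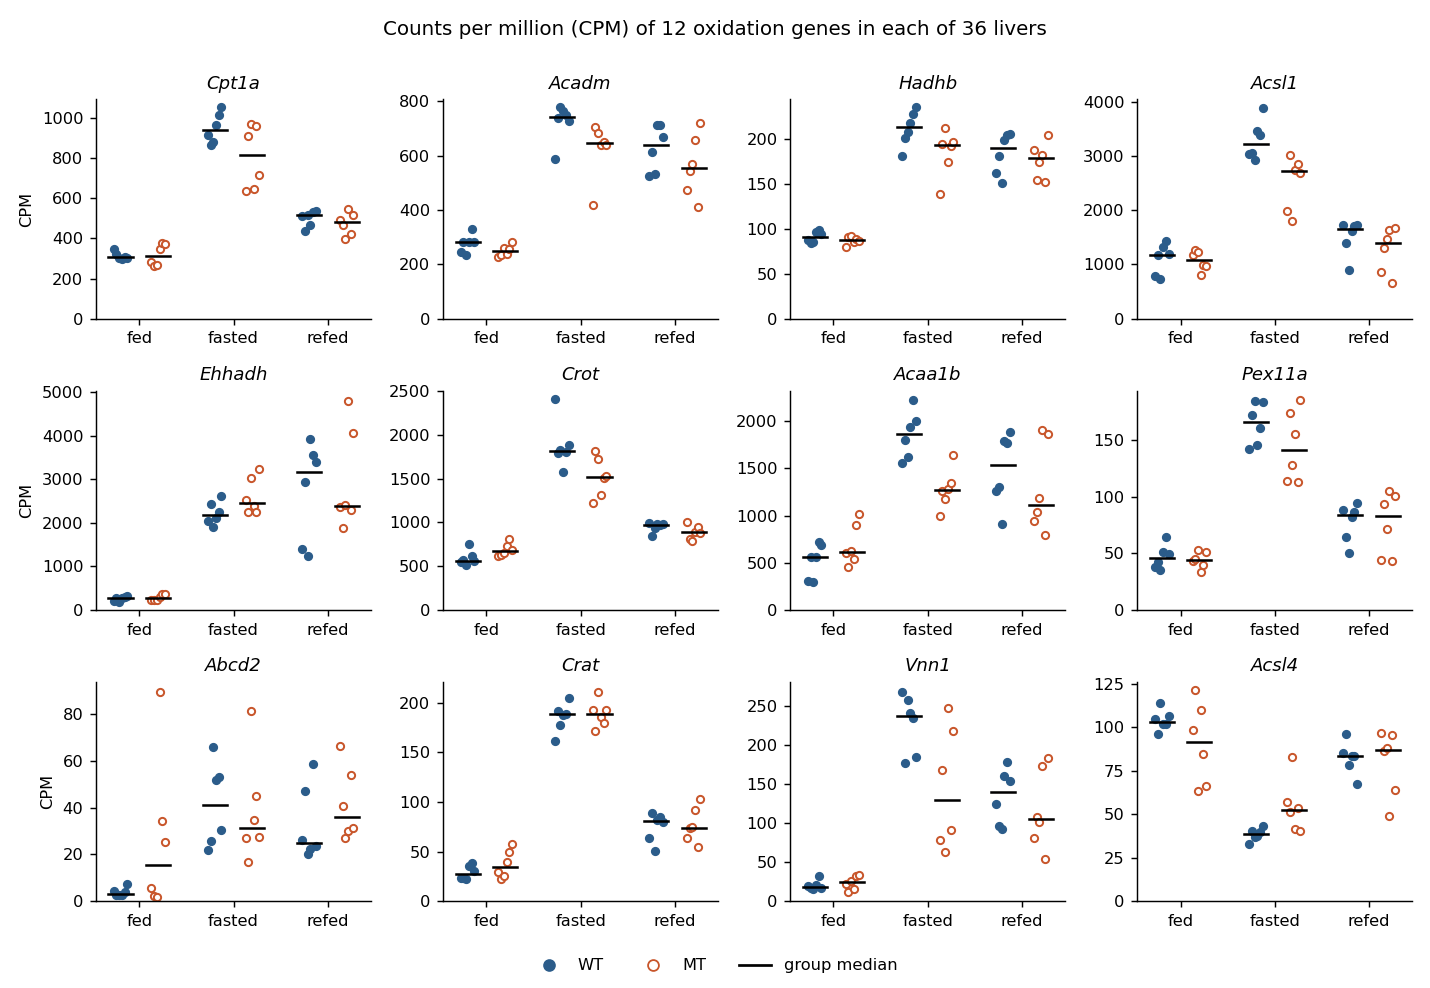
CPM (vertical axes, from 0) of 12 members in each of the 36 livers by feeding state, with filled points for WT, open points for MT and a bar at each group's median of 6 mice. *Ehhadh* rose from medians of 272 and 268 in fed WT and MT mice to 2173 and 2457 in fasted mice and was at 3170 and 2388 after refeeding, whereas *Crat* went from 188 and 189 in fasted mice down to 80.8 and 74.4.

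Peroxisomal members rose in the same fast, 10 of 12 in WT and 8 of 12 in MT mice, with median log2 fold changes of 1.03 and 0.70. Their median exceeded that of the mitochondrial members by 0.18 in WT and by 0.08 in MT mice, and with the members present at both sites assigned to the other class the WT difference was 0.26. *Ehhadh* ran from 180 to 316 CPM (median 272) in fed and 1899 to 2610 (median 2173) in fasted WT mice, and from 224 to 374 (median 268) and 2244 to 3240 (median 2457) in MT mice. Every fasted mouse lay above every fed mouse in both genotypes, with log2 fold changes of 3.12 (SE 0.26, adjusted p = 2.28e-11, edgeR) and 3.19 (SE 0.26, adjusted p = 2.02e-11).

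*Crot*, the carnitine octanoyltransferase that readies shortened chains for export to mitochondria, ran from 517 to 751 CPM (median 561) in fed and 1572 to 2407 (median 1814) in fasted WT mice. In MT mice it ran from 613 to 806.1 (median 669) fed and 1216 to 1810 (median 1516) fasted. The states did not overlap, and *Crot* gave the smallest p of all members in WT mice, with a log2 fold change of 1.67 (SE 0.10, adjusted p = 7.09e-15, edgeR) against 1.14 (SE 0.10, adjusted p = 3.79e-11) in MT mice. *Acaa1b* rose from 299 to 719 CPM (median 559) to 1557 to 2226 (median 1870) in WT mice, a log2 fold change of 1.83 (SE 0.24, adjusted p = 2.78e-07, edgeR). In MT mice it went from 452 to 1013 (median 615) to 992 to 1638 (median 1272), where the ranges met, a log2 fold change of 0.89 (SE 0.23, adjusted p = 0.00322). *Acaa1a* and *Acaa1b* are near-identical copies on chromosome 9, so the split of reads between them is uncertain.

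Genes of peroxisome number and import rose as well. *Pex11a*, which promotes peroxisome division, went from 35.5 to 64.7 CPM (median 45.8) to 142 to 184 (median 166) in WT mice and from 33.2 to 52.7 (median 44.1) to 113 to 186 (median 141) in MT mice. The log2 fold changes were 1.82 (SE 0.20, adjusted p = 1.58e-08, edgeR) and 1.71 (SE 0.20, adjusted p = 4.76e-08), with no overlap of the states. *Pex19*, a chaperone that delivers peroxisomal membrane proteins, rose by 0.83 and 0.51. *Abcd3*, another peroxisomal acyl-CoA transporter, rose by 0.63 in WT mice, and its MT value was 0.28 (adjusted p = 0.117, edgeR).

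*Abcd2* was scarce in fed WT liver, from 2.56 to 7.34 CPM (median 3.34), and ran from 22.03 to 65.7 (median 41.1) after the fast. This gave a log2 fold change of 3.35 (SE 0.66, adjusted p = 2.05e-04, edgeR) with no overlap. In MT mice fasted values ran from 16.8 to 81.2 (median 31.2), but fed values ran from 1.90 to 89.0 (median 15.5) and spanned the whole fasted range. The MT log2 fold change was 0.55 (SE 0.56, adjusted p = 0.487, edgeR).

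The peroxisomal members that did not follow were *Acox2*, the branched-chain acyl-CoA oxidase of bile acid synthesis, and *Pecr*, the trans-2-enoyl-CoA reductase. *Acox2* had log2 fold changes of -0.15 and -0.04 and was not called. *Pecr* ran from 114 to 157 CPM (median 143) in fed and 47.2 to 108 (median 82.7) in fasted MT mice and fell by 0.85 on the log2 scale (SE 0.15, adjusted p = 2.60e-05, edgeR) without overlap. In WT mice it ran from 117 to 162 (median 154) fed and 101 to 131 (median 122) fasted, a log2 fold change of -0.29 (adjusted p = 0.137, edgeR).

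The 5 members known at both sites rose in both genotypes. *Crat*, the carnitine acetyltransferase, went from 22.9 to 38.5 CPM (median 27.4) to 162 to 205 (median 188) in WT mice and from 22.05 to 57.4 (median 34.7) to 172 to 211 (median 189) in MT mice. Its log2 fold changes were 2.67 (SE 0.19, adjusted p = 1.88e-12, edgeR) and 2.34 (SE 0.19, adjusted p = 2.67e-11). *Eci2*, an enoyl-CoA isomerase, gave the smallest p of all members in MT mice, going from 90.4 to 116 CPM (median 97.9) to 234 to 290 (median 266). Its log2 fold change was 1.398 (SE 0.10, adjusted p = 1.29e-13, edgeR) in MT and 1.16 (SE 0.10, adjusted p = 8.76e-12) in WT mice. *Ech1*, the dienoyl-CoA isomerase, rose by 1.20 and 1.24, *Acad11* by 1.02 and 0.83, and *Mlycd*, which removes the malonyl-CoA that inhibits the carnitine shuttle, by 0.53 and 0.45.

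Among the 9 associated genes, uptake and handling genes rose and the activating enzymes split. *Vnn1*, the pantetheinase of the coenzyme A cycle, went from 16.0 to 32.6 CPM (median 18.7) to 176 to 267 (median 238) in WT mice and from 11.4 to 33.2 (median 24.3) to 63.5 to 247 (median 130) in MT mice. Its log2 fold changes were 3.46 (SE 0.34, adjusted p = 2.76e-09, edgeR) and 2.60 (SE 0.33, adjusted p = 3.19e-07), with no overlap of the states. *Cd36*, a fatty acid translocase of the cell surface, rose from 33.4 to 79.0 CPM (median 44.7) to 139 to 350 (median 207) in WT mice, a log2 fold change of 2.11 (SE 0.24, adjusted p = 4.12e-08, edgeR). In MT mice it rose from 48.1 to 121 (median 92.6) to 137 to 286 (median 168), by 1.11 (SE 0.23, adjusted p = 4.26e-04). *Cd36* is also expressed by macrophages, and the summed CPM of 7 Kupffer cell and macrophage markers had medians of 275 in fed and 352 in fasted WT mice and of 495 and 358 in MT mice, whose part in the *Cd36* values was not tested.

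Among the 37 members with a promoter window, *Fabp1* had the closest DR1-like match, and *Vnn1* had no such window. On fasting *Fabp1* changed little beside *Cd36* or *Vnn1*. It ran from 2170 to 3543 CPM (median 3044) in fed and 3820 to 5304 (median 4430) in fasted WT mice and from 2390 to 3596 (median 3040) and 3148 to 5720 (median 4058) in MT mice. The log2 fold change was 0.63 (SE 0.16, adjusted p = 0.00193, edgeR) in WT mice without overlap and 0.43 (SE 0.16, adjusted p = 0.0313) in MT mice with overlap. The MT call was lost on leaving out any 1 of fed mice ALC_MT_857, ALC_MT_858 and ALC_MT_866 or fasted mice ONF_MT_826, ONF_MT_921 and ONF_MT_923, and without mouse ONF_MT_923 the log2 fold change was 0.31 (adjusted p = 0.131). *Aldh3a2*, a fatty aldehyde dehydrogenase, rose by 1.87 and 1.23. *Ucp2* went from 8.22 to 13.99 CPM (median 11.4) to 12.02 to 28.2 (median 14.9) in WT mice, a log2 fold change of 0.58 (SE 0.21, adjusted p = 0.0317, edgeR) that was 0.36 (adjusted p = 0.169) without the highest fasted mouse, ONF_WT_807, and was also not called without fed mouse ALC_WT_848 or ALC_WT_849. Its MT values ran from 9.23 to 19.4 (median 13.7) fed and 15.5 to 22.7 (median 17.1) fasted, a log2 fold change of 0.34 (adjusted p = 0.209).

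Of the acyl-CoA synthetases, *Acsl1*, which is the main hepatic form for oxidation, ran from 725 to 1437 CPM (median 1184) in fed and 2926 to 3885 (median 3222) in fasted WT mice, and from 804 to 1259 (median 1079) and 1809 to 3025 (median 2720) in MT mice. It rose by 1.57 (SE 0.20, adjusted p = 8.90e-08, edgeR) and 1.23 (SE 0.19, adjusted p = 5.88e-06) without overlap. *Acsl4*, which prefers arachidonic acid, moved the other way, from 96.0 to 114 CPM (median 103) to 32.9 to 43.4 (median 38.6) in WT mice and from 63.6 to 122 (median 91.5) to 40.3 to 83.0 (median 52.4) in MT mice. The log2 fold changes were -1.44 (SE 0.16, adjusted p = 2.02e-08, edgeR) without overlap and -0.73 (SE 0.16, adjusted p = 5.44e-04) with overlap.

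*Acsl3*, a synthetase of the endoplasmic reticulum and lipid droplets, also fell. It ran from 26.3 to 49.8 CPM (median 35.1) in fed and 18.96 to 29.6 (median 23.7) in fasted WT mice, and from 30.7 to 44.2 (median 37.9) and 13.3 to 20.3 (median 15.4) in MT mice. Its log2 fold changes were -0.64 (SE 0.17, adjusted p = 0.00312, edgeR) with overlap and -1.24 (SE 0.17, adjusted p = 6.52e-07) without. *Acsl5* had a log2 fold change of 0.09 in WT mice and fell by 0.30 in MT mice (adjusted p = 0.0378, edgeR).

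Related genes outside the list moved less uniformly. The 34 other oxidation genes were a mixed list that also held genes of propionate and branched-chain amino acid breakdown. Of these 34 genes 29 could be tested, and in WT mice 10 rose and 6 fell on fasting, with a median log2 fold change of 0.12. In MT mice 7 rose and 14 fell, with a median of -0.13. The smallest p-values belonged in both genotypes to *Slc27a2*, a very long chain acyl-CoA synthetase (1.23 in WT and 1.08 in MT mice), *Slc25a20*, the carnitine-acylcarnitine carrier (1.35 and 1.26), and *Echdc1*, the ethylmalonyl-CoA decarboxylase (-1.13 and -1.17). Of 14 other peroxin genes, which build peroxisomes, 9 rose and 2 fell in WT and 4 rose and 1 fell in MT mice. *Pex3* was among the 3 with the smallest p in both, with log2 fold changes of 0.52 and 0.48.

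On refeeding for 6 h, *Cpt1a*, *Crot*, *Crat* and *Acsl1* fell in both genotypes, while *Acsl3* and *Acsl4* rose. In WT mice 17 of 44 members fell and 2 rose against fasted mice, and in MT mice 11 fell and 3 rose. Over all genes tested, 13.7% were called lower and 16.5% higher in WT mice, and 14.2% lower and 17.1% higher in MT mice. By class, 5 of 18 mitochondrial, 5 of 12 peroxisomal and 4 of the 5 members at both sites fell in WT mice, and 3, 4 and 3 in MT mice. Against fed mice, 30 members were called higher and none lower in refed WT mice, and 28 higher and 2 lower in refed MT mice. The all-gene shares were 13.2% higher and 14.3% lower in WT mice, and 13% higher and 13.1% lower in MT mice. Both sets of comparisons use the same refed mice, so their values are given side by side and are not independent.

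*Cpt1a* ran from 437 to 538 CPM (median 515) in refed WT and 398 to 546 (median 480) in refed MT mice, below every fasted mouse and above every fed mouse of the same genotype. Its log2 fold changes against fasted mice were -0.92 (SE 0.11, adjusted p = 2.11e-08, edgeR) and -0.77 (SE 0.11, adjusted p = 5.52e-07), and against fed mice 0.68 (SE 0.11, adjusted p = 9.77e-06) and 0.57 (SE 0.11, adjusted p = 8.98e-05). *Crot* ran from 846 to 989 CPM (median 972) and 789 to 1003 (median 885) in refed WT and MT mice, below all fasted mice. It fell by 0.99 on the log2 scale (SE 0.10, adjusted p = 2.20e-09, edgeR) in WT and by 0.77 (SE 0.10, adjusted p = 1.96e-07) in MT mice.

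*Crat* ran from 50.4 to 89.0 CPM (median 80.8) in refed WT and 55.1 to 103 (median 74.4) in refed MT mice, again below all fasted mice. Its log2 fold changes were -1.30 (SE 0.18, adjusted p = 1.48e-06, edgeR) and -1.29 (SE 0.18, adjusted p = 1.61e-06). *Pex11a* ran from 50.1 to 94.3 (median 84.2) and 43.3 to 105 (median 82.5), below all fasted mice, with log2 fold changes of -1.08 (SE 0.20, adjusted p = 6.89e-05) and -0.92 (SE 0.19, adjusted p = 4.20e-04). *Eci2* fell by 0.53 and 0.73 on the log2 scale, *Etfdh* by 0.50 and 0.44, and both were without overlap in WT mice.

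*Acsl1* fell in both genotypes. It ran from 898.9 to 1738 CPM (median 1664) in refed WT and 664 to 1670 (median 1390) in refed MT mice, with log2 fold changes against fasted mice of -1.12 (SE 0.19, adjusted p = 3.03e-05, edgeR) and -0.99 (SE 0.19, adjusted p = 1.44e-04). Against fed mice the values were 0.45 (SE 0.19, adjusted p = 0.0763, edgeR) and 0.25 (SE 0.19, adjusted p = 0.371), which were not called. *Acsl3* and *Acsl4*, which fell on fasting in both genotypes, rose on refeeding. *Acsl4* ran from 67.3 to 96.4 CPM (median 83.5) in refed WT mice, above all fasted ones, and from 48.9 to 96.6 (median 87.1) in refed MT mice. It rose by 1.097 (SE 0.16, adjusted p = 3.24e-06, edgeR) and 0.55 (SE 0.16, adjusted p = 0.00771).

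*Acsl3* ran from 28.7 to 59.0 CPM (median 39.5) in refed WT and 23.5 to 46.7 (median 42.3) in refed MT mice, where it lay above all fasted mice. It rose by 0.75 (SE 0.17, adjusted p = 6.49e-04, edgeR) and 1.29 (SE 0.17, adjusted p = 3.91e-07). *Pecr* rose in MT mice by 0.39 (SE 0.15, adjusted p = 0.0414), to between 69.4 and 122 CPM (median 110). This *Pecr* call was lost on leaving out any 1 of fasted MT mice ONF_MT_806, ONF_MT_827 and ONF_MT_923 or refed MT mice RF6_MT_814, RF6_MT_817, RF6_MT_897 and RF6_MT_899, and the log2 fold change was 0.28 without mouse ONF_MT_806.

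Much of the spiral was not called against fasted mice and was called higher than in fed mice. *Hadha* ran from 447 to 671 CPM (median 599) in refed WT and 492 to 622 (median 537) in refed MT mice, with log2 fold changes against fasted mice of -0.12 and -0.00. *Hadhb* ran from 151 to 207 (median 190) and 152 to 205 (median 179), with -0.21 and -0.07. Against fed mice *Hadhb* was higher by 1.01 (SE 0.09) in both genotypes, with adjusted p = 1.75e-10 and 1.10e-10 (edgeR), and *Hadha* by 0.82 (SE 0.08, adjusted p = 6.58e-09) and 0.79 (SE 0.08, adjusted p = 9.44e-09). The refed and fed mice did not overlap for either subunit.

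*Ehhadh* had the largest log2 fold change of all members against fed mice. It ran from 1235 to 3928 CPM (median 3170) in refed WT and 1879 to 4795 (median 2388) in refed MT mice, a wider range than in fasted mice. Against fasted mice the log2 fold changes were 0.30 (SE 0.24, adjusted p = 0.363, edgeR) and 0.18 (SE 0.24, adjusted p = 0.598), and against fed mice 3.42 (SE 0.26, adjusted p = 9.25e-11) and 3.37 (SE 0.26, adjusted p = 4.96e-11). *Ech1* ran from 450 to 574 CPM (median 504.9) and 365 to 546 (median 463) and was above fed mice by 1.23 (SE 0.10, adjusted p = 9.25e-11) and 1.25 (SE 0.10, adjusted p = 3.45e-11).

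*Acadm* ran from 525 to 713 CPM (median 641) in refed WT and 411 to 722 (median 557) in refed MT mice. It was above fed mice by 1.18 (SE 0.12, adjusted p = 3.53e-09, edgeR) and 1.17 (SE 0.12, adjusted p = 2.60e-09), and was not called against fasted mice. *Acaa1b* ran from 917 to 1890 (median 1535) and 791 to 1906 (median 1112), above fed mice by 1.51 (SE 0.24, adjusted p = 1.39e-05) and 0.90 (SE 0.23, adjusted p = 0.00423). *Vnn1* ran from 92.8 to 179 (median 139) and 53.6 to 183 (median 105), above fed mice by 2.71 (SE 0.34, adjusted p = 6.06e-07) and 2.29 (SE 0.33, adjusted p = 4.93e-06).

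*Cd36* fell in WT mice, to between 100.5 and 165 CPM (median 118), by 0.84 on the log2 scale (SE 0.23, adjusted p = 0.00644, edgeR). In refed MT mice it ran from 118 to 191 (median 136), with a log2 fold change against fasted mice of -0.41 (SE 0.23, adjusted p = 0.187). *Fabp1* ran from 3710 to 5462 (median 4275) in refed WT and 2552 to 5174 (median 3525) in refed MT mice, above fed mice by 0.60 (SE 0.16, adjusted p = 0.0036) in WT mice and by 0.25 (SE 0.16, adjusted p = 0.247) in MT mice, where it was not called. *Acsl5* was below its fed level in refed MT mice, with a log2 fold change of -0.56 (SE 0.11, adjusted p = 3.24e-04, edgeR), as was *Pecr*, with -0.46 (SE 0.15, adjusted p = 0.0173), a call that was lost without refed MT mouse RF6_MT_898 (-0.37, adjusted p = 0.0513).

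*Abcd2* ran from 20.2 to 58.6 CPM (median 24.9) in refed WT and 27.1 to 66.4 (median 35.96) in refed MT mice, above all fed WT mice, with log2 fold changes against fed mice of 3.03 (SE 0.66, adjusted p = 8.56e-04, edgeR) and 0.65 (SE 0.56, adjusted p = 0.429). *Ucp2* ran from 8.62 to 16.9 (median 11.1) and 7.26 to 17.2 (median 12.2) and was not called against either state. Of the 29 other oxidation genes tested, 6 rose and 10 fell on refeeding in WT and 7 rose and 5 fell in MT mice. Of the 14 other peroxins 2 rose and 3 fell in WT, and 4 rose and 2 fell in MT mice.

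**Figure D2:**
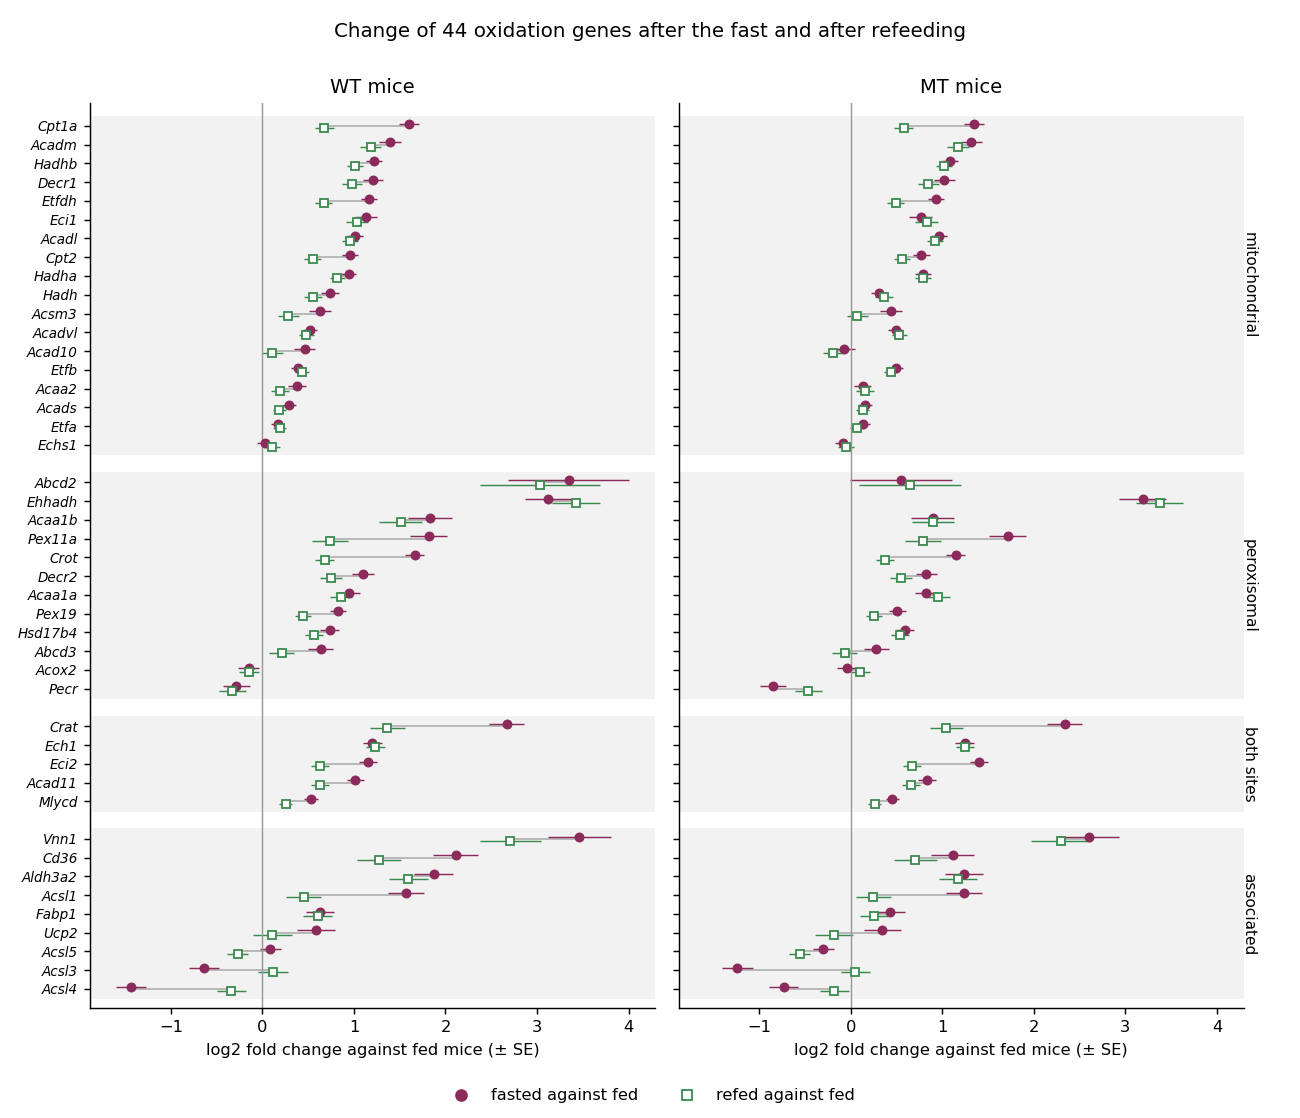
Log2 fold change against fed mice of the same genotype (horizontal axis, bars 1 SE, 6 mice per group) for each of the 44 members in WT (left) and MT mice (right), with filled circles for fasted and open squares for refed mice, by class. *Cpt1a*, *Crot*, *Crat*, *Pex11a* and *Acsl1* have squares well to the left of their circles, whereas for *Ehhadh* the values were 3.12 fasted and 3.42 refed in WT mice.

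In the fed state the genotypes differed in few members. Of 44 members, 1 was called higher in MT mice and none lower, where 1.21% of all genes tested were called higher and 1.15% lower. The median log2 fold change was -0.02, against 0.01 over all genes tested. Scaling by library size alone moved the median of all genes in this comparison by 0.10. Within the run of mouse numbers that held fed mice of both genotypes, 3 MT and 2 WT, the median was -0.11 with 41 of 44 members below 0. The same within-run values over all genes tested are not given, so these cannot be read as particular to the members. The called member was *Abcd2*, with a log2 fold change of 2.72 (SE 0.66, adjusted p = 0.0263, edgeR). Its fed WT values ran from 2.56 to 7.34 CPM (median 3.34) and its fed MT values from 1.90 to 89.0 (median 15.5), so the groups overlapped. Fed MT mice ALC_MT_857, ALC_MT_858 and ALC_MT_859 were at 5.61, 2.51 and 1.90 CPM, and mice ALC_MT_866, ALC_MT_868 and ALC_MT_869 at 89.0, 34.4 and 25.5. The last of these lay within the fasted range of either genotype, as did the second, and the highest lay above every fasted and refed mouse. No fed WT mouse had a number in that later run. The call was lost on leaving out any 1 of WT mice ALC_WT_847, ALC_WT_848 and ALC_WT_849 or MT mice ALC_MT_866, ALC_MT_868 and ALC_MT_869, and without mouse ALC_MT_866 the log2 fold change was 1.82 (adjusted p = 0.137, edgeR).

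Mice ALC_MT_866, ALC_MT_868 and ALC_MT_869 also stood apart for *Cd36*, at 107, 121 and 120 CPM against 48.1 to 78.1 in the other fed MT mice and 33.4 to 79.0 in WT mice. The overall *Cd36* difference was 0.81 (SE 0.24, adjusted p = 0.0575, edgeR) and was not called. The mean of the peroxisomal members' centred log2 CPM minus that of the mitochondrial ones was between 0.01 and 0.07 in these 3 mice, between -0.38 and -0.22 in the other 3 fed MT mice and between -0.50 and -0.24 in fed WT mice. Without these 3 mice, an alternative chosen after seeing the data, no member was called in the fed state and the *Abcd2* log2 fold change was -0.27. With run of mouse numbers as a covariate it was -0.77 (adjusted p = 0.999, edgeR), an estimate that rests on the 3 MT and 2 WT fed mice of the shared run.

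Markers of other cells differed among the same mice. The summed CPM of 7 Kupffer cell and macrophage markers was 657, 781 and 492 in mice ALC_MT_866, ALC_MT_868 and ALC_MT_869 and ran from 233 to 328 in fed WT mice. It was 498 in MT mouse ALC_MT_859, whose *Abcd2* was 1.90 CPM, and 221 and 230 in MT mice ALC_MT_857 and ALC_MT_858. The sum of 5 lymphocyte markers was 43.8, 41.8 and 21.5 CPM in mice ALC_MT_866, ALC_MT_868 and ALC_MT_869, between 12.98 and 20.6 in the other fed MT mice and between 10.5 and 18.2 in fed WT mice. Most of that sum was *Ptprc*, with a median of 16.8 CPM over all libraries. The other lymphocyte markers reached at most 2.30 CPM in any library, so the sum chiefly follows *Ptprc*. The sum of 6 stellate cell markers ran from 365 to 511 CPM in fed MT and from 261 to 380 in fed WT mice. Between fed MT and WT mice edgeR called 0 of 7 Kupffer cell and macrophage markers and 0 of 4 lymphocyte markers tested. It called 1 of 6 stellate cell markers higher. The part of these cells in the values of *Abcd2* and *Cd36* was not tested. *Eci2* was lower in every fed MT mouse (90.4 to 116 CPM) than in any fed WT mouse (119 to 128), with a log2 fold change of -0.30 (SE 0.10, adjusted p = 0.0800, edgeR), which was not called.

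**Figure D3:**
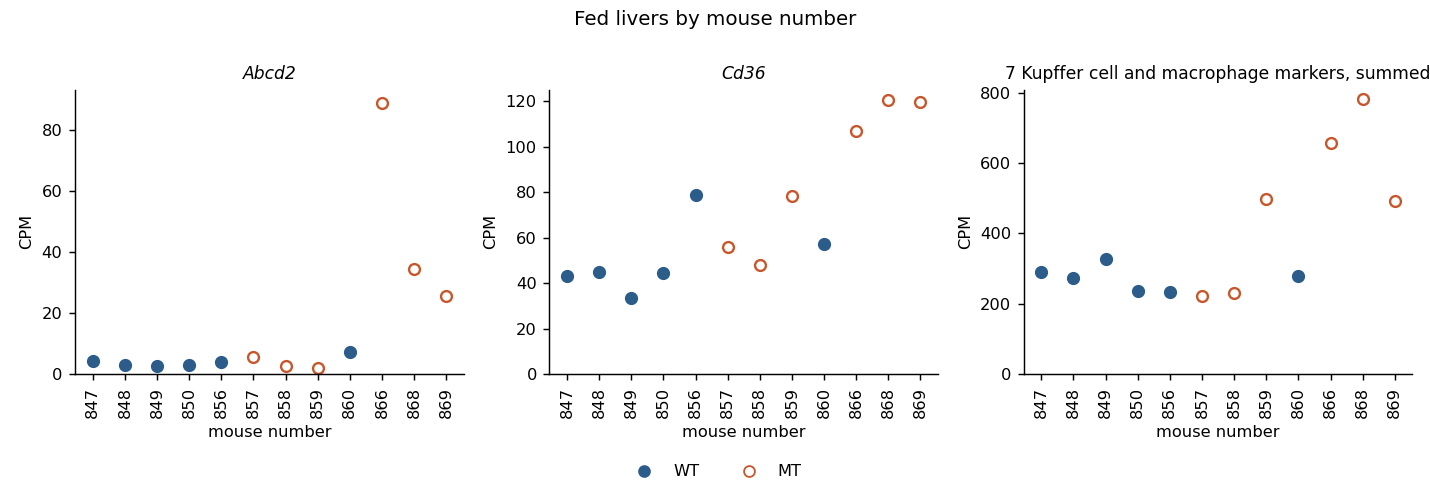
CPM (vertical axes, from 0) of *Abcd2*, *Cd36* and the sum of 7 Kupffer cell and macrophage markers in each of the 12 fed livers, ordered by mouse number, with filled points for WT and open points for MT mice. *Abcd2* was at 25.5 or more in mice ALC_MT_866, ALC_MT_868 and ALC_MT_869 and at 7.34 or less in the other 9, whereas the marker sum was also raised in mouse ALC_MT_859, at 498.

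In the fasted state 8 members were lower in MT mice, by less than 1 on the log2 scale, and *Acsl4* was higher. The 8 called lower and 1 called higher, of 44, stood beside 6.63% and 6.43% of all genes tested. The log2 fold change was below 0 for 38 of 44 members with a median of -0.21, against 6924 of 13945 and 0.00 over all genes tested. The class medians were -0.21 for mitochondrial members (4 of 18 called), -0.27 for peroxisomal members (2 of 12), -0.07 for members at both sites (1 of 5) and -0.19 for associated genes. Within the 2 runs of mouse numbers that each held 3 fasted mice of each genotype, the median was -0.21 with 36 of 44 below 0, and -0.25 with 39 of 44 below 0. Values within runs are not given over all genes tested, so these describe the members alone.

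The smallest p belonged to *Hadh*, the mitochondrial 3-hydroxyacyl-CoA dehydrogenase of medium and short chains. It ran from 349 to 461 CPM (median 422) in fasted WT and from 211 to 331 (median 322) in fasted MT mice, without overlap, a log2 fold change of -0.45 (SE 0.10, adjusted p = 0.00174, edgeR). In fed mice it was at 214 to 277 (median 254) in WT and 210 to 278 (median 252) in MT mice. *Pecr* ran from 101 to 131 (median 122) in fasted WT and 47.2 to 108 (median 82.7) in fasted MT mice, with a log2 fold change of -0.59 (SE 0.15, adjusted p = 0.00637). *Acad10*, an acyl-CoA dehydrogenase family member, ran from 28.3 to 42.7 (median 37.2) and 18.97 to 32.5 (median 28.003), with -0.44 (SE 0.11, adjusted p = 0.0078).

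*Cpt2* was lower without overlap, at 214 to 246 CPM in WT and 172 to 207 in MT mice, with a log2 fold change of -0.29 (adjusted p = 0.0261, edgeR). The remaining members called lower were *Acsl3* at -0.60, *Acaa2* at -0.31, *Crot* at -0.31 and *Acad11* at -0.28. *Acsl4* alone was called higher, at 0.50 (SE 0.16, adjusted p = 0.0359, edgeR), from 32.9 to 43.4 CPM in fasted WT and 40.3 to 83.0 in fasted MT mice, with overlap. *Vnn1*, *Acaa1b* and *Acsl1* had log2 fold changes of -0.65, -0.53 and -0.39 with SE of 0.31, 0.23 and 0.19 and were not called. *Ehhadh* (0.23, SE 0.24) and *Pex11a* (-0.19, SE 0.19) were not called either.

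These genotype counts rested in part on single mice. Fasted MT mouse ONF_MT_806 had the lowest score of the mitochondrial members, -0.24 in centred log2 CPM, where the other 5 fasted MT mice were between 0.18 and 0.32 and fasted WT mice between 0.19 and 0.49. Without it 4 members were called, all lower, and without fasted WT mouse ONF_WT_919 there were 5. The *Crot* call was lost on leaving out any 1 of mice ONF_WT_807, ONF_MT_806, ONF_WT_920 and ONF_MT_921, and the *Acsl4* call on leaving out any 1 of ONF_WT_807, ONF_WT_825, ONF_WT_918, ONF_WT_919, ONF_MT_806 and ONF_MT_827, with a log2 fold change of 0.34 without ONF_MT_827. Of 29 other oxidation genes, 11 were called lower and none higher in fasted MT mice, with a median of -0.22. *Acad9*, a complex I assembly factor of the same family, was at -0.43. Of the other peroxins 3 were lower and 1 higher, led by *Pex26* at -0.58.

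In refed mice no member was called by genotype, where 0.0215% of all genes tested were called higher and 0.00717% lower by edgeR. The log2 fold change was below 0 for 37 of 44 members, including all 18 mitochondrial ones, with a median of -0.10 and values between -0.30 and 0.33. Over all genes tested it was below 0 for 6761 of 13945, with a median of 0.01. Scaling by library size alone moved the median of all genes in this comparison by 0.07. An unadjusted p under 0.05 was reached by 3 members of 44 and by 9.53% of all genes tested. The lowest adjusted p was 0.366, and DESeq2 called 0 members as well. Within the 2 runs of mouse numbers that each held 3 refed mice of each genotype, the median was -0.05 with 26 of 44 below 0, and -0.19 with 41 of 44 below 0. Again, no values within runs are given over all genes tested.

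**Figure D4:**
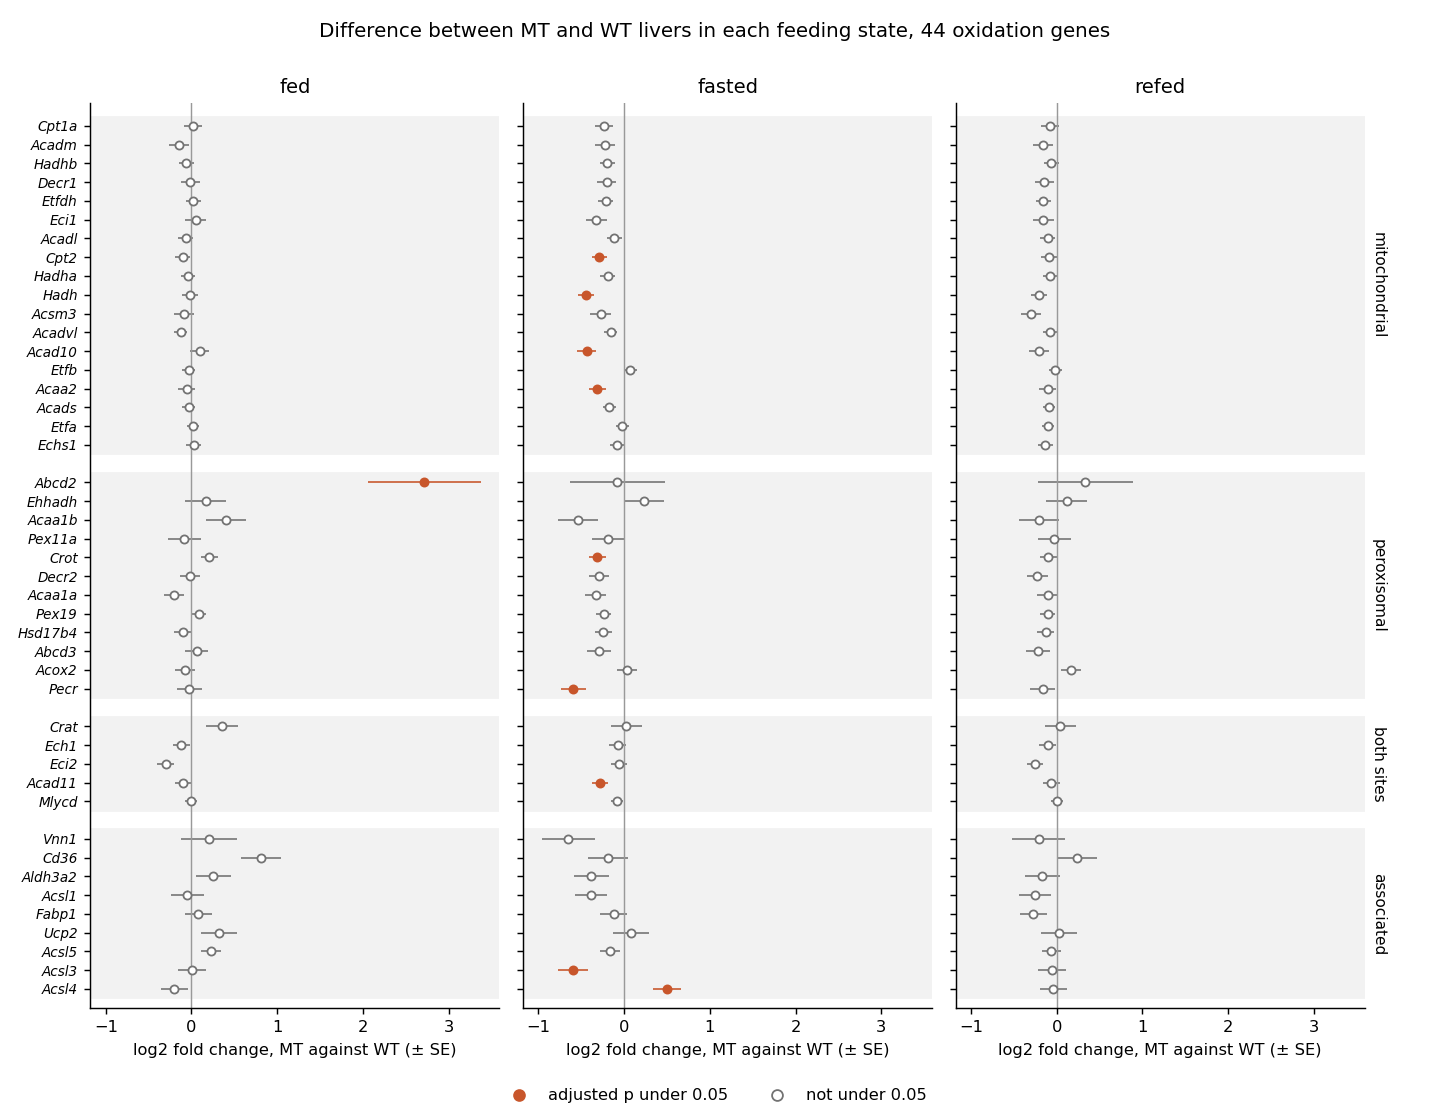
Log2 fold change of MT against WT mice (horizontal axes, bars 1 SE, 6 mice per group) of the 44 members in fed, fasted and refed mice, by class, with points in orange where the adjusted p was under 0.05. In the fasted panel 38 of 44 points lie below 0, and in the fed panel *Abcd2* at 2.72 stands alone.

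The fasting response itself, taken as the fold change in MT minus that in WT mice, was called smaller for 2 members and larger for none, beside 1.76% and 2.59% of all genes tested. These were *Crot*, with a difference of -0.52 (SE 0.14, adjusted p = 0.028, edgeR), and *Acad10*, with -0.53 (SE 0.16, adjusted p = 0.045). For MT against WT, *Crot* had log2 fold changes of 0.21 in fed mice, not called, and -0.31 in fasted mice, and *Acad10* of 0.10, not called, and -0.44. The estimate was below 0 for 38 of 44 members, with a median of -0.19, against 7211 of 13945 and -0.01 over all genes tested. Both the fed and the fasted differences enter this estimate. *Abcd2* (-2.80, SE 0.86, adjusted p = 0.0577), *Hadh* (-0.43, SE 0.14, adjusted p = 0.0589), *Acsl4* (0.70, SE 0.23, adjusted p = 0.0677) and *Cd36* (-1.001, SE 0.33, adjusted p = 0.078) were not called. With run of mouse numbers as a covariate neither call held, with *Crot* at -0.42 (adjusted p = 0.308, edgeR) and *Acad10* at -0.30 (adjusted p = 0.527). That covariate leaves the fed part of the difference to the 3 MT and 2 WT mice of the run that held both genotypes. Without fed MT mice ALC_MT_866, ALC_MT_868 and ALC_MT_869 none was called, and *Crot* was at -0.41 (adjusted p = 0.158) and *Acad10* at -0.57 (adjusted p = 0.0837). Without fasted MT mouse ONF_MT_806 neither was called, with *Crot* at -0.47 (adjusted p = 0.0569) and *Acad10* at -0.45 (adjusted p = 0.0915). The *Crot* call was also lost without WT mouse ONF_WT_807 or ALC_WT_849 or MT mouse ALC_MT_868, and the *Acad10* call in 17 other cases of leaving out 1 mouse.

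The refeeding response differed between genotypes for no member by edgeR, beside 0.595% of all genes tested called higher and 1.46% lower. Its estimate was above 0 for 34 of 44 members, with a median of 0.12, against 7276 of 13945 and 0.02 over all genes tested. For this difference 3 members of 44 reached an unadjusted p under 0.05, as did 15.5% of all genes tested. The lowest adjusted p was 0.219, and DESeq2 called 0 members. For *Cpt1a* the difference was 0.15 (SE 0.15).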

How the data were processed

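Total RNA libraries from 36 mouse livers were made with a stranded kit and sequenced as single reads, per the labels. The authors deposited estimated counts per gene, of which 3.64% of those above 0 were not whole, from a pipeline whose processing notes name Cuffdiff, SAMtools, featureCounts and edgeR. Those notes name genome build mm9, but 99.7% of 36341 loci overlapped the same gene in GENCODE M21 (GRCm38). The protocol text speaks of human genes, and strand use in counting is not given in the sources used here. A second table of model-fitted values was not used.

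Estimated counts were rounded, filtered with filterByExpr (13945 genes kept), scaled by TMM and fitted over all 36 libraries with edgeR 4.0.16 in R 4.3.3 (limma 3.58.1), by the quasi-likelihood test with Benjamini-Hochberg adjustment. The fit was tested on simulated data. Samples were grouped by genotype and state from the labels, and p-values measure the spread between mice. Alternatives were a likelihood ratio test, DESeq2 1.42.0, other scalings and filters, the compared groups alone, run of mouse numbers as a covariate, and leaving out each mouse. Within groups, the 90 pairs of libraries all differed by more than sampling noise (chi-square per degree of freedom at least 6.91). The members and lists were chosen with earlier results of these data known. Every member may be named. Values per mouse and full statistics were given for the 3 members with the smallest p in each direction of a comparison and for *Cpt1a*, *Acadm*, *Hadha*, *Ehhadh*, *Acaa1b*, *Crot*, *Pex11a*, *Abcd2*, *Acsl1*, *Fabp1*, *Vnn1*, *Cd36* and *Ucp2*, and of other lists the 3 genes with the smallest p could be named.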

Additional observations from a re-analysis of the deposited data

Results flagged for a closer look

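Within groups of 6 mice, a value was set apart where its gap to the nearest other mouse, over the range of the group, exceeded Dixon's critical value at the 95% level. Of 138 groups of values examined (23 members in 6 groups), 10 held such a mouse, and chance gives about 1 in 20, or 6.9. Fasted MT mouse ONF_MT_806 was the low one for 4 members. Its *Acadm* was at 420 CPM, with the other 5 between 638 and 704.2. Its *Hadha* was at 452, with the others between 560 and 591. Its *Ech1* was at 335, with the others between 473 and 544, and its *Hadh* at 211, with the others between 313 and 331.

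Fasted WT mouse ONF_WT_807 was low for *Acadm*, at 588 CPM with the others between 729 and 780, and for *Ech1*, at 421 with the others between 493 and 522. It was high for *Ucp2*, at 28.2 with the others between 12.02 and 16.1. Fasted MT mouse ONF_MT_827 was high for *Ucp2*, at 22.7 with the others between 15.5 and 17.7. Fed MT mouse ALC_MT_866 was high for *Abcd2*, at 89.0 with the others between 1.90 and 34.4. Fed WT mouse ALC_WT_856 was high for *Vnn1*, at 32.6 with the others between 16.0 and 21.1.

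The change on fasting differed between genotypes, by the test of the difference itself, for *Acad10* (-0.53 on the log2 scale, MT minus WT, adjusted p = 0.0450, edgeR) and *Crot* (-0.52, adjusted p = 0.0280). In MT mice *Acad10* had a log2 fold change of -0.07 on fasting and was not called. Neither difference was called with run of mouse numbers as a covariate, with the compared groups alone or without fed MT mice ALC_MT_866, ALC_MT_868 and ALC_MT_869.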

How the results depend on the processing

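Of 1638 alternative values of the 82 named fold changes, 1559 kept their direction and call, 77 lost the call and 2 reversed, both for *Abcd2* in fed mice, to -0.77 with run of mouse numbers as a covariate and to -0.27 without fed MT mice ALC_MT_866 to ALC_MT_869, chosen after seeing the data. For genotype in fed mice 1 member was called, against 2 with the likelihood ratio test, library size alone or DESeq2, and 0 with the covariate, without those mice or with the compared groups alone. In fasted mice library size alone gave 5 calls in place of 9. For the fasting response difference 2 members were called, against 5 with the likelihood ratio test or DESeq2, 4 with at least 10 counts in every library, 1 with the covariate, which was neither of those 2, and 0 without mice ALC_MT_866 to ALC_MT_869 or with the compared groups alone. For refed against fasted MT mice the compared groups alone gave 9 calls in place of 14. The causes were not tested.

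Leaving out 1 mouse gave 0 to 2 calls by genotype in fed, 4 to 11 in fasted and 0 to 0 in refed mice, and 0 to 6 for the fasting response difference. The peroxisomal minus mitochondrial difference of medians on fasting was 0.26 in WT mice with the other class for members at both sites, and for genotype in fasted mice leaving out 1 mouse gave -0.074 to -0.021. Calls on fasting ran from 38 to 40 in WT and 33 to 35 in MT mice. Library size alone moved the median of all genes by up to 0.10, in fed mice by genotype. No paired analysis was possible because mouse numbers are not shared between groups. *Abcd2* and *Ucp2* had the lowest CPM per kilobase in fed WT mice, and whether depth or spread between mice sets their errors was not tested.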
